A study of Mus musculus with 6 samples.

Results

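The BCL2 family genes described here are Bcl2, Bcl2l1, Mcl1, Bax, Bak1, Bid, Bcl2l11, Bbc3, Pmaip1 and Bad, taken as the rows of the deposited gene table with exactly these names. All 10 were found, among 34709 genes in all, and all 10 passed the filter of a mean of at least 0.5 FPKM that 15373 genes passed. FPKM is a fragment count divided by transcript length and library size, so levels can be compared between genes. The series asked how gene expression in articular cartilage of mice depended on 1 gene, with 3 libraries labelled KO and 3 labelled wildtype. The labels named no treatment. Per the study's methods the mice were male and aged, the KO line was purchased, and wildtype littermates served in the study's model of ageing joints. The number of animals behind each library was not stated, so the p-values measure the spread between these libraries.

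BCL2 family proteins decide at the mitochondrial outer membrane whether a cell enters the intrinsic pathway of apoptosis. The effectors BAX and BAK form pores that release cytochrome c, and the anti-apoptotic proteins BCL2, BCL-XL and MCL1 hold the effectors in check. The BH3-only proteins sense damage and tip the balance by binding anti-apoptotic members, and some of them bind the effectors as well. Articular cartilage has a single resident cell type, the chondrocyte, and loss of chondrocytes is a recognised feature of joints with osteoarthritis. In the deposited KEGG annotation, 9 of the 10 members carried the term Apoptosis, and Bbc3 carried no KEGG term.

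The members share a short stretch named the BH3 motif, through which they bind each other. To show what the 5 most expressed members have in common, the coding stretch around the motif is printed for Bcl2l1 (chr2:152829694-152829735, minus strand, exon 2 of 3), Bak1 (chr17:27022528-27022569, minus strand, exon 4 of 6), Bid (chr6:120897286-120897327, minus strand, exon 4 of 6), Bax (chr7:45465994-45466035, minus strand, exon 3 of 6) and Mcl1 (chr3:95659424-95659465, plus strand, exon 1 of 3). The sequences are coding strand of GRCm38 with GENCODE annotation, 5′ to 3′. Capitals mark the core searched for, which is a leucine codon, any 3 codons, a glycine, alanine or serine codon and an aspartate codon.
Bcl2l1: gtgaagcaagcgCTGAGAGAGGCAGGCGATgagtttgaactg
Bak1: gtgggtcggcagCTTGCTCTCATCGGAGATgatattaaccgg
Bid: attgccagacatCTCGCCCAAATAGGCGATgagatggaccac
Bax: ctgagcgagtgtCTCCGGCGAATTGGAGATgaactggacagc
Mcl1: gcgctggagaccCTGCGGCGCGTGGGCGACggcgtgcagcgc

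The core was found in all 10 members, whatever their role. The core is short, and 34.0% of 21555 coding genes held it, so a match alone is only a description of these letters.

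The libraries differed in ways that the groups did not explain, and this bears on every value that follows. Total counts ranged from 52268311 to 63331135 per library. KO replicates 2 and 3 differed far less than any other pair (noise ratio 5.78, where Poisson sampling of single reads gives 1 and the other 14 pairs gave 23.6 to 85.3), and they were averaged and counted as 1 sample. The comparison thus had 2 KO and 3 wildtype samples. The leading principal component held 45.9% of the variance, and on it KO replicates 2 and 3 lay at 50.7 and 49.6, while the library labelled KO replicate 1 lay at -24.6 beside the wildtype libraries at -26.2 to -23.9. The labels were taken as given and were not checked here against the knocked-out gene, so each difference between KO and wildtype rests on them. Transcripts of blood-forming cells were abundant throughout, since erythroid markers summed to 21145 to 52388 FPKM in KO and 60586 to 93953 in wildtype, against 668 to 1470 and 661 to 875 for chondrocyte markers. The largest part of the chondrocyte sum was Prg4, at 436 to 1034 FPKM in KO and 402 to 581 in wildtype. The collagen gene Col2a1 was at 12.4 to 16.0 FPKM in KO and 13.9 to 21.3 in wildtype. Of the 14 chondrocyte markers, 11 passed the filter, and the matrilin genes Matn1 and Matn3 were listed at 0 in some libraries.

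The members spanned a wide range of levels. In wildtype cartilage the order by mean FPKM was Mcl1, Bax, Bcl2l1, Bak1, Bid, Bad, Bcl2, Bcl2l11, Bbc3 and Pmaip1, from 105 ± 10.8 for Mcl1 to 2.65 ± 0.510 for Pmaip1 (SD, n = 3). Mcl1 had 3.45 times the level of the next gene. Neighbours whose ranges over the wildtype libraries overlapped were Bax and Bcl2l1, and the run from Bcl2 over Bcl2l11 and Bbc3 to Pmaip1. Compared within each library, Bcl2 was the highest of that run in every wildtype library, at 1.16, 1.09 and 1.07 times Bcl2l11. The order of Bax and Bcl2l1, of Bcl2l11 and Bbc3, and of Bbc3 and Pmaip1 changed between wildtype libraries. In KO the order of the means was the same except that Bak1 stood at rank 2 instead of 4. There Bak1 lay above Bcl2l1 in every library, whereas Bak1 and Bax overlapped and so did Bax and Bcl2l1, Bcl2 and Bcl2l11, and Bbc3 and Pmaip1.

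**Figure D1:**
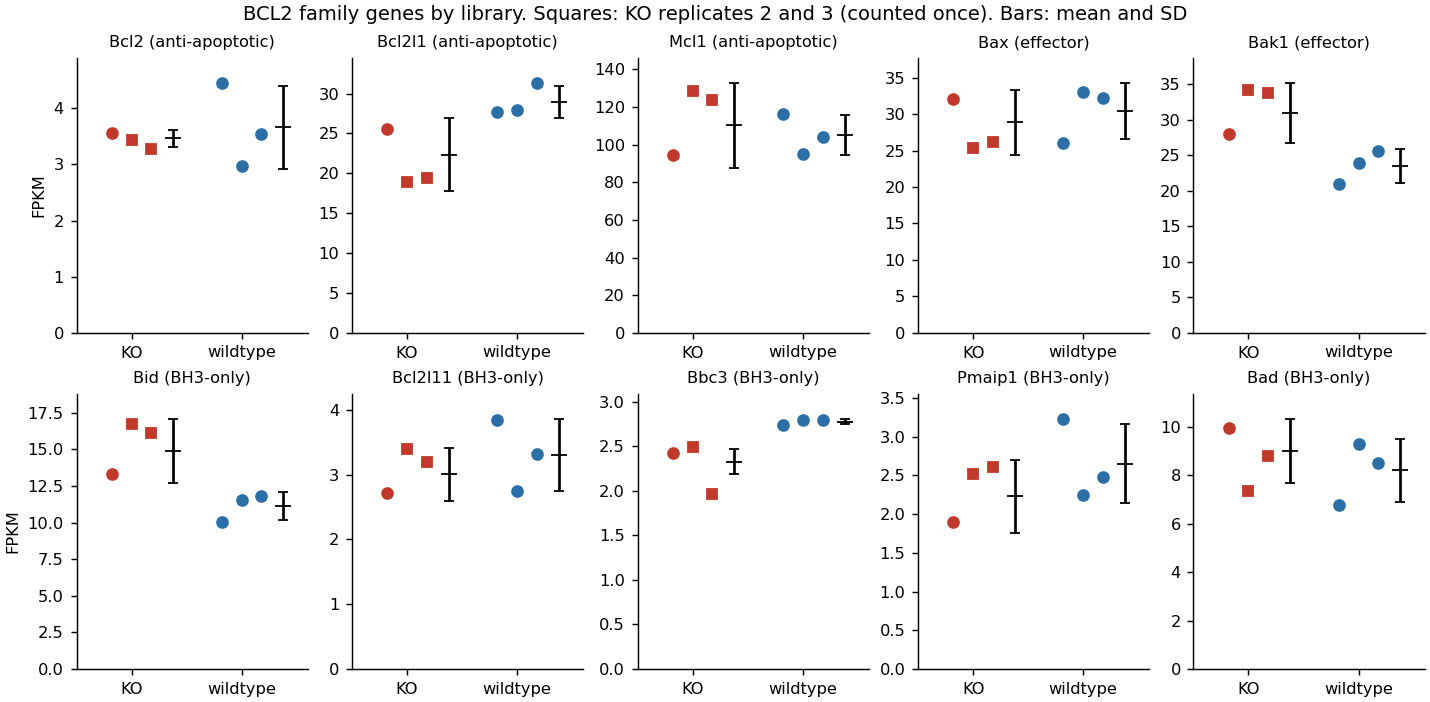
FPKM of each member (vertical axes, starting at 0) in the KO libraries (red) and the wildtype libraries (blue), with the mean and SD of 2 KO and 3 wildtype samples. All 3 KO libraries lie above the wildtype libraries for Bak1 and Bid and below them for Bcl2l1 and Bbc3, and the groups overlap for the other 6 members.

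In edgeR's quasi-likelihood fit of all tested genes, with p-values adjusted by the method of Benjamini and Hochberg, 0 of the 10 members passed the threshold of 0.05, and the share over all genes was 0% as well. At an unadjusted p-value under 0.05 there were 2 members, Bak1 and Bid, with higher values in KO, against 7.63% of all genes, and 0 members with lower values, against 6.07% (13.7% for both directions). The members' median log2 difference, KO minus wildtype, was -0.052, and that of all tested genes was -0.016. By DESeq2 on the same samples, 0 members passed the adjusted threshold, which 5.72% of genes passed, and the same 2 passed the unadjusted one, which 16.1% passed. With the 6 libraries as labelled, edgeR again gave 0 members at the adjusted threshold, against 3.71% of genes, and 3 at the unadjusted one, Bcl2l1 being the third, against 22.2%. In FPKM, 4 of 10 members had groups that did not overlap, and so had 25% of all tested genes. The share was 11.3% for genes above and 13.7% for genes below the wildtype range, with KO replicates 2 and 3 taken as separate libraries.

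**Figure D2:**
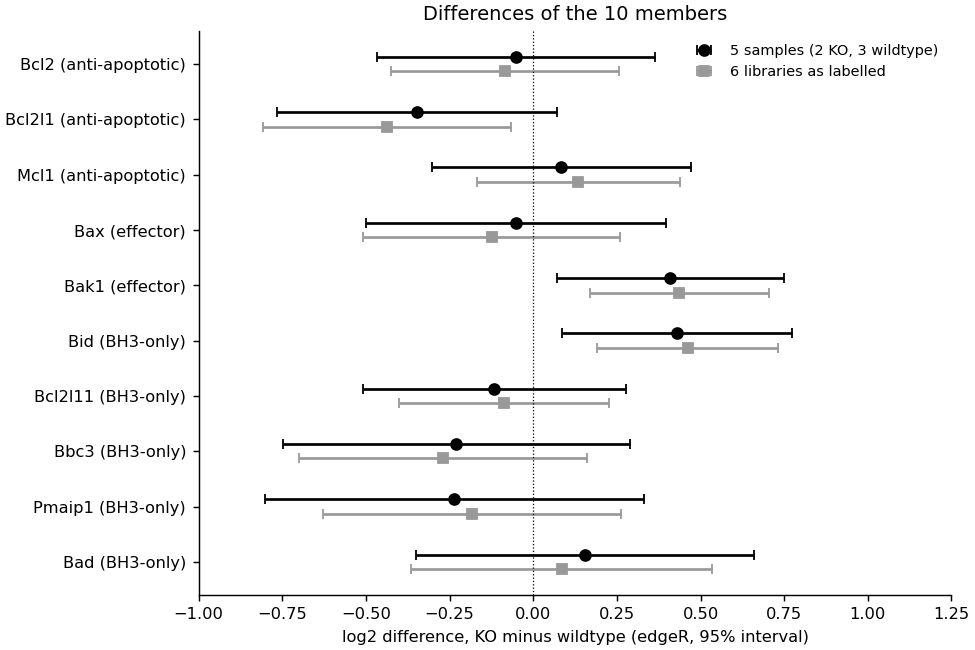
Log2 difference of each member, KO minus wildtype (horizontal axis), with its 95% interval by edgeR for 2 KO against 3 wildtype samples (black circles) and for the 6 libraries as labelled (grey squares). The black intervals of Bak1 and Bid lie above 0 before adjustment for the number of genes tested, and the other 8 include 0.

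Among the anti-apoptotic members, Mcl1 (chromosome 3, 95658788 to 95663176), whose short-lived product is needed by many blood cell types, was by far the most abundant. Its level was 94.3, 128.4 and 123.8 FPKM in KO replicates 1 to 3, and 116.2, 94.8 and 104.2 in wildtype replicates 1 to 3. The lowest KO library lay under every wildtype library and the other two lay above them. The log2 difference was 0.084 with a 95% interval of -0.30 to 0.47 (adjusted p = 0.902, edgeR). Mcl1 made up 76.4%, 85.2% and 84.5% of the FPKM of the 3 anti-apoptotic members in the KO libraries, and 78.3%, 75.4% and 74.9% in the wildtype libraries.

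Bcl2l1 (chromosome 2, 152780668 to 152831728) encodes BCL-XL, which supports the survival of maturing red cells and of many other cells. It was measured at 25.5, 18.9 and 19.4 FPKM in KO and at 27.7, 28.0 and 31.3 FPKM in wildtype. Every KO library lay below every wildtype library, although KO replicate 1 lay close to them. The log2 difference was -0.35 (SE 0.178, 95% interval -0.77 to 0.071, adjusted p = 0.463, edgeR), and 19.5% of tested genes had a smaller p-value. The value turned on which KO library was used. It was -0.64 without KO replicate 1 (adjusted p = 0.0821) and -0.10 without KO replicates 2 and 3 (adjusted p = 0.841), each time with 1 KO sample that was assumed to vary like the wildtype samples. The erythroid markers were also lowest in KO replicates 2 and 3. Their sum was 52388, 21332 and 21145 FPKM in the KO libraries and at least 60586 FPKM in wildtype. At unadjusted p-values 6 of the 10 erythroid genes had lower values in KO, against 6.07% of all genes. The part of erythroid cells in the Bcl2l1 result was not tested, and in bulk tissue fewer cells of a type cannot be told apart from less RNA per cell. The table lists 8 transcripts of this gene, and the long and short forms, which act in opposite ways, were summed.

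Bcl2 (chromosome 1, 106538178 to 106714274), the founding member of the family, was low in every library. It was at 3.57, 3.44 and 3.28 FPKM in KO and at 4.45, 2.98 and 3.55 FPKM in wildtype. All KO libraries lay within the wildtype range. The log2 difference was -0.052, with a 95% interval of -0.47 to 0.36 (adjusted p = 0.952, edgeR).

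The 2 pore-forming effectors differed in their patterns. Bak1 (chromosome 17, 27019810 to 27029009), whose product sits in the outer membrane also in healthy cells, was at 27.9, 34.1 and 33.7 FPKM in KO and at 20.9, 24.0 and 25.6 FPKM in wildtype. The lowest KO library lay above the highest wildtype library. The means were 30.9 ± 4.23 (SD, n = 2) and 23.5 ± 2.34 (SD, n = 3). The log2 difference of 0.41 (SE 0.144, 95% interval 0.070 to 0.75), a fold of 1.33, did not pass the test (unadjusted p = 0.0246, adjusted p = 0.278, edgeR). Smaller p-values were found for 8.80% of tested genes. With the 6 libraries as labelled the difference was 0.44 (adjusted p = 0.0752, edgeR).

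Bax (chromosome 7, 45461697 to 45466898), whose product moves from the cytosol to mitochondria in dying cells, was at 32.1, 25.3 and 26.1 FPKM in KO and at 26.02, 33.1 and 32.2 FPKM in wildtype. KO replicate 1 and wildtype replicates 2 and 3 were high, the other libraries were low, and the groups overlapped. The log2 difference was -0.052, with a 95% interval of -0.50 to 0.40 (adjusted p = 0.956, edgeR). Together the effectors reached 60.0, 59.4 and 59.9 FPKM in KO and 47.0, 57.0 and 57.7 FPKM in wildtype. The sum varied less among the KO libraries than either gene did. It lay above the wildtype values only narrowly, at 59.4 against 57.7 FPKM, and Bak1, a part of the sum, did so by itself.

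Among the BH3-only members, Bid (chromosome 6, 120891930 to 120916853) links death receptors to mitochondria once its product is cut by caspase-8. It was at 13.4, 16.7 and 16.2 FPKM in KO and at 10.05, 11.6 and 11.8 FPKM in wildtype. As for Bak1, every KO library lay above every wildtype library, and KO replicate 1 was the lowest of the KO libraries. The means were 14.9 ± 2.18 (SD, n = 2) and 11.1 ± 0.962 (SD, n = 3). The log2 difference of 0.43 (SE 0.146, 95% interval 0.086 to 0.77), a fold of 1.35, did not pass either (unadjusted p = 0.0210, adjusted p = 0.265, edgeR), and 7.92% of tested genes had smaller p-values. With the 6 libraries as labelled it was 0.46 (adjusted p = 0.0690, edgeR).

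The unadjusted calls of Bak1 and Bid depended on which libraries were included. Both genes kept them without wildtype replicate 2 and without wildtype replicate 3. Both were at unadjusted p-values above 0.05 without wildtype replicate 1 (log2 differences 0.31 and 0.34, edgeR) and without KO replicates 2 and 3 (0.33 and 0.34). Summed, neutrophil markers were also more abundant in every KO library than in any wildtype library. The single gene Camp overlapped, at 3807 and 3863 FPKM in KO replicates 2 and 3 and 4365 FPKM in wildtype replicate 2. For the markers together the values follow. The neutrophil sum was 63429, 52146 and 53368 FPKM in KO and 27490, 44432 and 31374 FPKM in wildtype. All 12 neutrophil genes had positive log2 differences, and 8 of them had unadjusted p-values under 0.05, against 7.63% of all genes with higher values. KO replicate 1 was the lowest KO library for 7 of the 12 genes, as for Bak1 and Bid, although it had the highest sum. B cell markers went the other way, at 97.6 to 151.6 FPKM in KO and 306.2 to 345.5 FPKM in wildtype. At unadjusted p-values 12 of 12 B cell genes and 5 of 5 tested adipocyte genes were lower in KO, against 6.07% of all genes. The part of these cells in the values of Bak1 and Bid was not tested.

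Bbc3 (chromosome 7, 16308393 to 16318205), which encodes the p53 target PUMA, was at 2.43, 2.49 and 1.97 FPKM in KO and at 2.74, 2.79 and 2.79 FPKM in wildtype. All KO libraries lay below the wildtype libraries, which differed little among themselves (coefficient of variation 1.04%). KO replicates 2 and 3, the closest pair over all genes, differed here by 0.34 on the log2 scale. This was the most of any member, followed by Bad at 0.26. The log2 difference between the groups was -0.23 (SE 0.220, 95% interval -0.75 to 0.29, adjusted p = 0.745, edgeR).

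The other 3 BH3-only members overlapped between the groups. Pmaip1 (chromosome 18, 66458533 to 66465565), which encodes NOXA, a partner of MCL1, was at 1.89, 2.52 and 2.61 FPKM in KO and at 3.23, 2.25 and 2.48 FPKM in wildtype (log2 difference -0.24, 95% interval -0.80 to 0.33, adjusted p = 0.764, edgeR). Bcl2l11 (chromosome 2, 128126038 to 128162547), which encodes BIM and binds all anti-apoptotic members, was at 2.71, 3.39 and 3.20 FPKM in KO and at 3.85, 2.74 and 3.32 FPKM in wildtype (log2 difference -0.12, 95% interval -0.51 to 0.28, adjusted p = 0.851, edgeR). For both genes wildtype replicate 1 was the highest library and KO replicate 1 the lowest. Bad (chromosome 19, 6941861 to 6951899), whose product is held inactive by phosphorylation downstream of growth factors, was at 9.93, 7.36 and 8.79 FPKM in KO and at 6.77, 9.31 and 8.51 FPKM in wildtype. Its log2 difference was 0.15 (95% interval -0.35 to 0.66, adjusted p = 0.845, edgeR).

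Several of these genes share their locus with others. Bak1 is overlapped along its whole length by Gm50253 (2.41 FPKM on average) and Ggnbp1 (0.316 FPKM) on the opposite strand, Bid over 913 bases by Bcl2l13 (7.84 FPKM), another member of the wider family, and Bad over 620 bases by Gpr137 (6.71 FPKM). The libraries kept the strand, but whether counting used it is not given in the sources used here, so reads of such partners may not have been told apart.

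Within the KO group the members split in 2 ways. Relative to the mean of KO replicates 2 and 3, KO replicate 1 was higher for Bcl2l1 by 0.42, for Bax by 0.32 and for Bad by 0.30 on the log2 scale, and lower for Pmaip1 (-0.44), Mcl1 (-0.42), Bid (-0.30), Bcl2l11 (-0.28) and Bak1 (-0.28). For Bcl2 and Bbc3 the gap was 0.087 and 0.12. In size these gaps within one group exceeded the log2 difference between the groups for 7 of the 10 members, the exceptions being Bak1, Bid and Bbc3. Skeletal muscle markers split along the same libraries, with 187 FPKM in KO replicate 1, 4.37 and 3.57 FPKM in KO replicates 2 and 3, and 36.9 to 341 FPKM in wildtype, and their part in these gaps was not tested. For Bcl2, Bcl2l1, Mcl1, Bax, Bak1 and Bid, KO replicate 1 lay nearer to the wildtype mean than KO replicates 2 and 3 did. It lay farther from that mean than both for Pmaip1, Bcl2l11 and Bad, and ranked between them for Bbc3. Leaving out single samples turned the sign of Bcl2, Mcl1, Bax and Bad, and the other 6 members kept theirs.

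**Figure D3:**
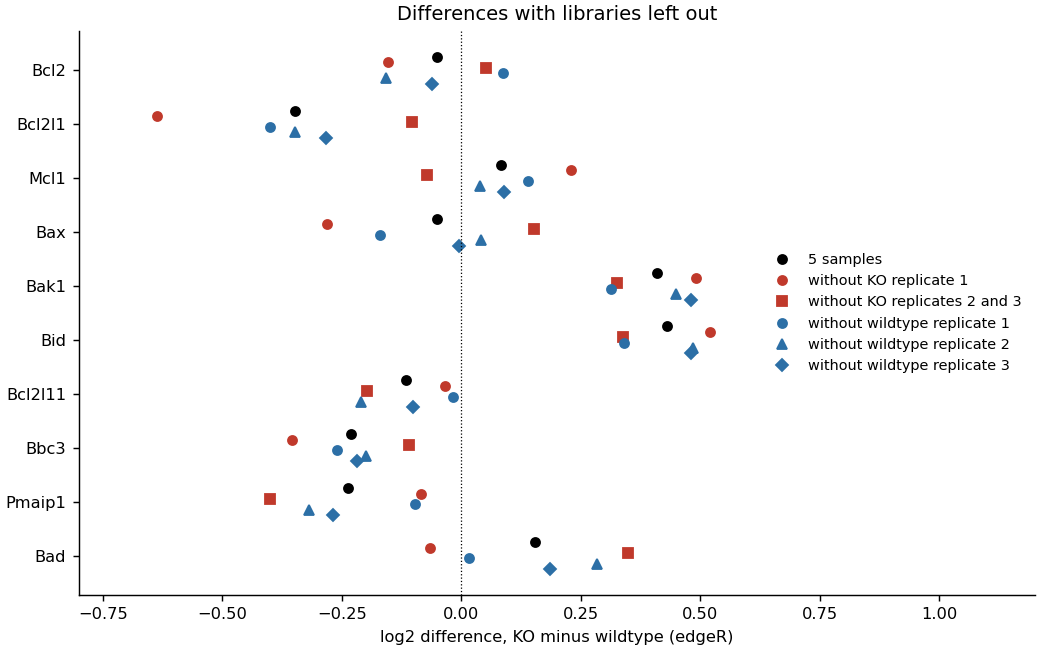
Log2 difference of each member, KO minus wildtype (horizontal axis), for the 5 samples (black) and with KO libraries (red) or wildtype libraries (blue) left out. Bak1 stays between 0.31 and 0.49 and Bid between 0.34 and 0.52, whereas Bcl2l1 runs from -0.64 to -0.10 and Mcl1, Bax, Bcl2 and Bad lie on both sides of 0.

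Since the proteins act by binding one another, the ratios between members were also examined within each library, where the scaling between libraries cancels. They are given as descriptions, with no test. The ratio of Bak1 to Bcl2l1 was 1.09, 1.81 and 1.74 in KO and 0.757, 0.857 and 0.816 in wildtype, with no overlap. The Bid to Bcl2l1 ratio was 0.523, 0.885 and 0.834 in KO and 0.363, 0.414 and 0.378 in wildtype, with no overlap either. For Bax to Bcl2l1 the gap was narrower, at 1.26, 1.34 and 1.35 in KO and 0.940, 1.18 and 1.03 in wildtype. As Bak1 and Bid lay above and Bcl2l1 below the wildtype range in every KO library, the first 2 ratios could not overlap and restate the single genes, and all 3 share Bcl2l1 as the denominator.

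The ratio of Bax to Bcl2, a common readout of this balance, was 8.99, 7.37 and 7.97 in KO, inside the wildtype values of 5.85, 11.1 and 9.07. The sum of the effectors over the sum of the anti-apoptotic members, which Mcl1 dominates, was 0.486, 0.394 and 0.409 in KO and 0.317, 0.454 and 0.415 in wildtype, with overlap. The Mcl1 to Bcl2l1 ratio was 6.80 and 6.39 in KO replicates 2 and 3, but 3.69 in KO replicate 1, among the wildtype values of 4.20, 3.39 and 3.33. Over all 45 pairs of members, 17 ratios (37.8%) did not overlap between the groups. The share was 26.5% over all pairs of tested genes with values above 0 in every library. Of the 17, 14 involved Bcl2l1, Bak1 or Bid, whose own groups did not overlap, as those of Bbc3 did not. Many of the 45 pairs contain Bcl2l1, Bak1 or Bid.

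**Figure D4:**
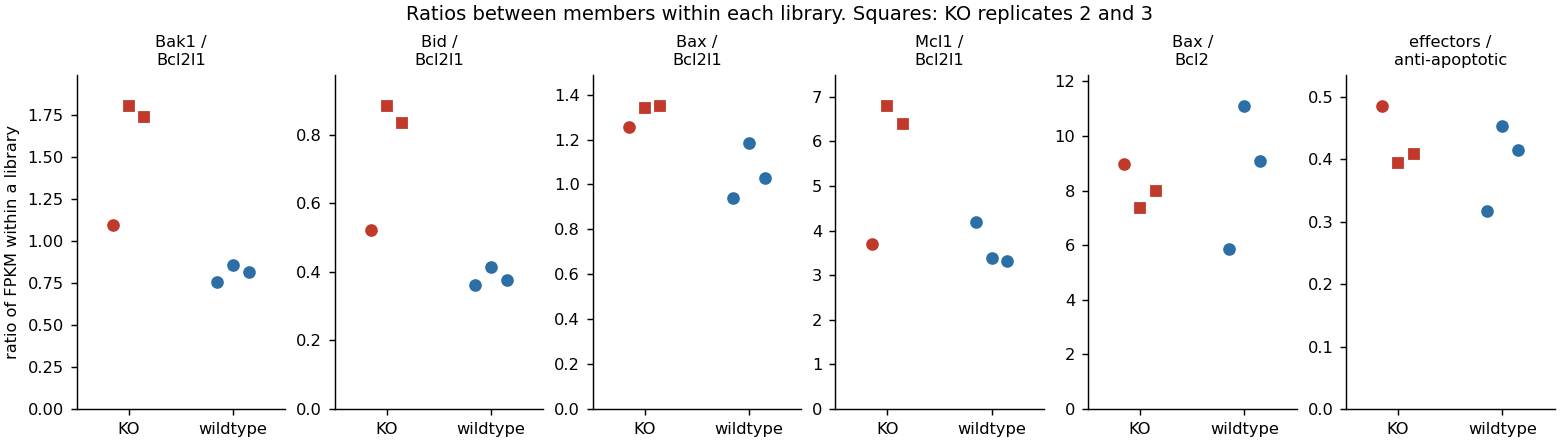
Ratio of FPKM between members within each library (vertical axes, starting at 0) for KO (red, with squares for replicates 2 and 3) and wildtype (blue). The ratios of Bak1, Bid and Bax to Bcl2l1 do not overlap between the groups, and those of Mcl1 to Bcl2l1, Bax to Bcl2 and effectors to anti-apoptotic members do.

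The further genes of the pathway were followed in 5 lists with 62 genes, of which 57 passed the filter. By edgeR 0 passed the adjusted threshold, and 6 with higher and 3 with lower values in KO had unadjusted p-values under 0.05, which is 15.8% of the lists against 13.7% of all genes. By DESeq2, and with the 6 libraries as labelled, 2 (3.51%) passed the adjusted threshold, where 5.72% and 3.71% of all genes did. Lists with 57 tested genes are too short to set apart from these shares. With the 6 libraries as labelled, the genes past the threshold included Tnfrsf1a (adjusted p = 0.0441, edgeR).

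Of all genes, 7.63% had higher and 6.07% had lower values in KO at unadjusted p-values. Of 13 tested genes of the wider BCL2 family, 0 had higher and 1 had lower values, with a median log2 difference of -0.16. This was Bcl2a1a, an anti-apoptotic gene of blood cells, at 1.54, 1.61 and 1.89 FPKM in KO and 2.70, 3.71 and 3.06 FPKM in wildtype (log2 difference -0.92, adjusted p = 0.266, edgeR). It has near-identical copies that may share its reads. The copy Bcl2a1b had a difference of -0.45 and the copy Bcl2a1d one of -0.053, each with overlapping groups. Bnip3l, a mitophagy receptor of maturing red cells, was at 59.5 ± 10.4 FPKM in KO (SD, n = 2) and 82.2 ± 8.63 in wildtype (SD, n = 3), with a difference of -0.44 (adjusted p = 0.365, edgeR). Of the 3 untested genes, Bcl2l10 was listed at 0 in every library, and Hrk and Bcl2l14 were under the filter.

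Downstream of the mitochondria, 2 of 14 genes had higher and 1 had lower values in KO at unadjusted p-values (median 0.021). For all genes the shares were 7.63% and 6.07%, and a list of 14 is too short to set apart from them. Apaf1, the scaffold of the apoptosome, was at 8.95, 14.0 and 15.1 FPKM in KO and 8.73, 7.24 and 8.24 FPKM in wildtype, so that KO replicate 1 lay just above the wildtype range (log2 difference 0.55, adjusted p = 0.258, edgeR). Diablo, whose product leaves mitochondria and blocks inhibitors of caspases, was at 5.37, 4.52 and 4.55 FPKM in KO and 6.67, 6.01 and 7.43 FPKM in wildtype (log2 difference -0.41, adjusted p = 0.326, edgeR). The 7 inhibitors of apoptosis had 0 genes at unadjusted p-values in either direction (median 0.090), with Birc2 at -0.20, Birc5 at -0.15 and Dffa at 0.14.

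In the death receptor pathway, which reaches the mitochondria through Bid, 2 of 10 tested genes had higher and 0 had lower values in KO at unadjusted p-values, with a median of 0.25. Of all genes, 7.63% had higher and 6.07% had lower values, and a list of 10 is too short to set apart from these shares. The TNF receptor gene Tnfrsf1a was at 50.9, 67.9 and 66.6 FPKM in KO and 41.1, 40.6 and 44.6 FPKM in wildtype (log2 difference 0.50, adjusted p = 0.197, edgeR). Fas was at 6.17, 6.61 and 7.53 FPKM in KO and 5.02, 4.90 and 4.53 FPKM in wildtype (log2 difference 0.47, adjusted p = 0.285, edgeR). Both genes had all KO libraries above the wildtype libraries. Ripk1, a kinase of the same receptor complexes, had a difference of 0.33 (adjusted p = 0.373, edgeR).

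Of 13 tested regulators of the members' transcription or turnover, 2 had higher and 1 had lower values in KO at unadjusted p-values (median -0.011). For all genes the shares were 7.63% and 6.07%, and a list of 13 is too short to set apart from them. Trib3, a stress-response pseudokinase, had the largest difference of the 5 lists at 1.05, from 0.770 ± 0.109 FPKM in wildtype (SD, n = 3) to 1.59 ± 0.617 in KO (SD, n = 2, adjusted p = 0.234, edgeR). Stat3, which can activate Mcl1 and Bcl2l1, was at 0.46 (adjusted p = 0.348, edgeR) and Foxo1, which can activate Bcl2l11 and Bbc3, at -0.55 (adjusted p = 0.252, edgeR). Trp53, the gene of p53, had 14.2 ± 3.29 FPKM in KO (SD, n = 2) and 15.8 ± 1.29 in wildtype (SD, n = 3). Across the 126 genes with the KEGG term Apoptosis, 121 were tested, and 19 had higher and 6 lower values in KO at unadjusted p-values (median 0.066), including Bak1 and Bid. These are 15.7% and 4.96% of the list, against 7.63% and 6.07% of all genes. Among the smallest p-values there were those of Mapk3 and Capn1, with log2 differences of 0.59 and 0.57 (adjusted p = 0.166 and 0.179, edgeR).

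**Figure D5:**
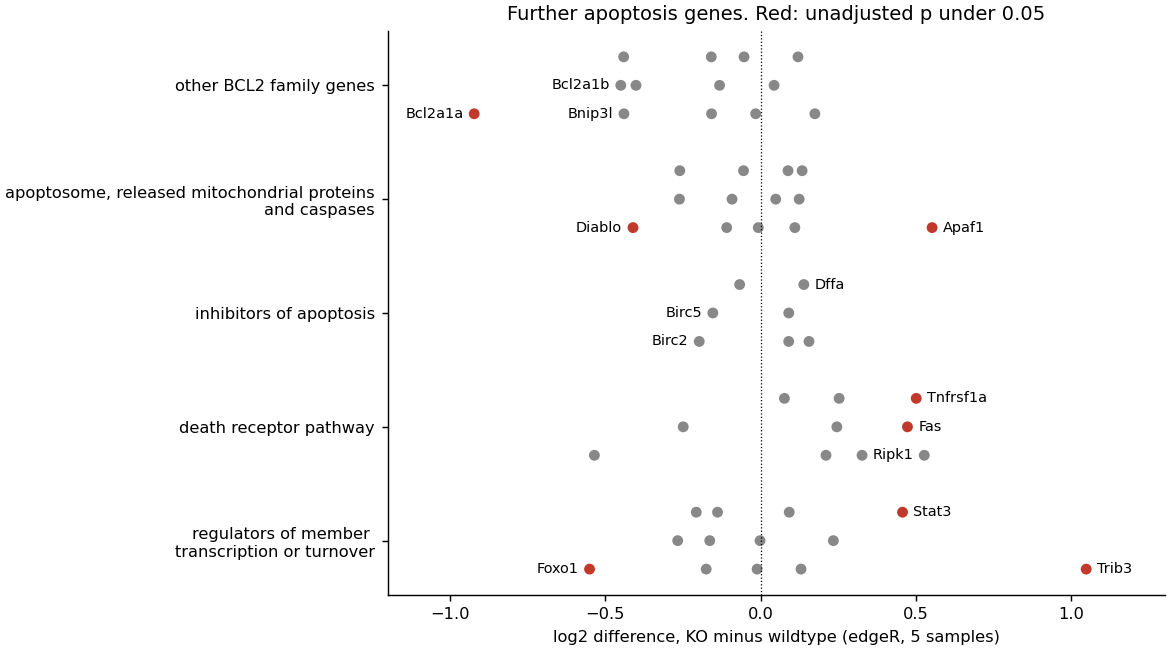
Log2 difference, KO minus wildtype (horizontal axis), of tested genes in 5 lists of the apoptosis pathway, with unadjusted p-values under 0.05 in red and the named genes labelled. The 8 red points are Apaf1, Diablo, Tnfrsf1a, Fas, Trib3, Stat3, Foxo1 and Bcl2a1a, and none passed the adjusted threshold.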

How the data were processed

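RNA-seq of articular cartilage (3 KO and 3 wildtype libraries, grouped by their labels) was analysed. The authors deposited 1 table with an FPKM value and an estimated count per gene and library. The submitters' processing notes list cutadapt 1.9, HISAT2 2.0.4, UMI-tools, StringTie 1.3.4d, DESeq2 and edgeR without their roles. The deposited counts were whole numbers, with low values piling up at 4 (6596 values, against 4170 at 3 and 2332 at 5), so a count was not taken as 1 fragment. The genome build is not given in the sources used here, and 91.5% of 34607 shared genes had the start and end of GRCm38. Values of the knocked-out gene and of 1 gene of the further lists are not reported, though counts over the lists include the latter.

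Counts were tested with edgeR 4.0.16 (R 4.3.3, quasi-likelihood, TMM scaling) on the 15373 genes whose FPKM averaged 0.5 or more across the 6 libraries. KO replicates 2 and 3 were averaged and rounded, which gave 5 samples. P-values were Benjamini-Hochberg adjusted over all tested genes, and an adjusted p-value under 0.05 made a call. Log2 differences are KO minus wildtype. If a count were 1 fragment, a count of 0 in the shallowest library would allow up to 0.0574 CPM (3 counts), for counting error alone. As that was not assumed, the value is only a rough guide.

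Named were all members and, from each further list, up to 3 genes with the smallest unadjusted p-values. Trp53, Prg4, Col2a1 and the matrilin genes were added after their values were seen. Members and lists were chosen with earlier results of these data known. Alternatives were DESeq2 1.42.0, limma 3.58.1 on log2(FPKM + 1) and log2(FPKM + 0.1), median-of-ratios scaling, no filter, a minimum of 5 FPKM, counts divided by 4, the 6 libraries as labelled, a replicate block and left-out libraries.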

Additional observations from a re-analysis of the deposited data

How the results depend on the processing

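No member passed the adjusted threshold under any of the alternatives, and over all alternatives 150 member values kept the direction and the side of the threshold. Of these, Bak1 ranged from 0.31 to 0.49 on the log2 scale (adjusted p 0.0752 to 0.592) and Bid from 0.34 to 0.52 (adjusted p 0.0690 to 0.574). A further 6 values changed sign, all with adjusted p-values far above 0.05: Bcl2 was 0.088 without wildtype replicate 1 and 0.051 without KO replicates 2 and 3, Mcl1 was -0.072 and Bax 0.15 without KO replicates 2 and 3, Bax was 0.041 without wildtype replicate 2, and Bad was -0.065 without KO replicate 1. With single samples left out Bcl2 ran from -0.16 to 0.088, Mcl1 from -0.072 to 0.23, Bax from -0.28 to 0.15 and Bad from -0.065 to 0.35. The cause was not tested.

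Leaving out single libraries, the count of members at unadjusted p-values ran from 0 (without wildtype replicate 1, and without KO replicates 2 and 3) to 3 (without KO replicate 1). Among the further genes, 0 to 1 then passed the adjusted threshold and 4 to 16 the unadjusted one, where the 5 samples gave 9. Among all genes these counts were 0 to 352 and 1384 to 3186, where the 5 samples gave 0 and 2106. With the 6 libraries as labelled, 2 further genes and 570 genes in all passed the adjusted threshold, and 14 and 3408 the unadjusted one. DESeq2 gave 2 further genes and 879 genes in all at the adjusted threshold. Without the filter on low values 21 genes passed it, and with a minimum of 5 FPKM 1291 genes passed the unadjusted one, fewer genes being tested there. Scaling moved the median of all genes by less than 0.1.

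Whether the replicate numbers pair the libraries could not be decided. Same-numbered libraries had correlations of -0.14, -0.11 and -0.058 between their deviations from the group means. The KO libraries that were averaged for the main fit were nearly alike, so the KO deviations mostly repeated the same contrast. These correlations therefore cannot show or exclude pairing. With the replicate number as a block and the 6 libraries as labelled, 0 members passed the adjusted threshold and 3 the unadjusted one, with Bak1 at 0.44 (adjusted p = 0.130, edgeR), Bid at 0.46 (adjusted p = 0.125, edgeR) and Bcl2l1 at -0.46 (adjusted p = 0.257, edgeR).

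With 2 KO samples, 1 of which lay beside the wildtype libraries, only wide intervals were possible. The narrowest 95% interval of a member was that of Bak1 (0.070 to 0.75 on the log2 scale) and the widest that of Pmaip1 (-0.80 to 0.33).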
